A study of Rattus norvegicus with 4 samples.

Results

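A set of 10 genes of Toll-like receptor (TLR) signalling was followed in the dorsal root ganglion (DRG): the receptors Tlr2, Tlr3, Tlr4 and Tlr7, the co-receptors Cd14 and Ly96, the adaptors Myd88 and Ticam1, the transcription factor subunit Nfkb1 and the ligand Hmgb1. The genes were chosen by name, and a member was a protein-coding row of the deposited count table that carried that name. Of 10 genes, 8 had such a row, out of 22293 protein-coding genes. For Ly96 and Ticam1 no protein-coding row carried the name, and both are described separately. The DRGs came from wild-type Wistar rats at P23, and several lumbar ganglia were pooled for each of 4 libraries. In the vehicle group (n = 2 libraries) rats had received intraperitoneal phosphate-buffered saline, and in the cisplatin group (n = 2 libraries) 0.3 mg/kg of cisplatin, a platinum-based anti-cancer drug, each on P14 and P16. The sample labels instead place the isolation 16 days after treatment. The sex behind each library is not stated.

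TLRs are receptors of innate immunity that recognise microbial molecules and molecules released by damaged cells. TLR2 and TLR4 lie at the cell surface, whereas TLR3 and TLR7 sense RNA inside endosomes. CD14 hands lipopolysaccharide to the pair formed by TLR4 and MD-2, the product of Ly96. Most TLRs signal through MyD88, TLR3 signals through TRIF (the product of Ticam1), and TLR4 uses both. These adaptors lead to activation of NF-kappaB, of which Nfkb1 encodes the p50 subunit and its precursor. HMGB1 is a nuclear protein that can act as a TLR4 ligand when released. In sensory ganglia, TLRs are known from macrophages, satellite glia and nociceptors, and TLR4 has been studied for its part in chemotherapy-induced pain.

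Promoter windows, each reaching from 250 bases before to 50 bases after a gene start in RefSeq (build GRCr8), were available for 8 of the 10 genes. Tlr3 and Cd14 are shown because they had the highest fitted fold changes of the measured genes, and Tlr2 and Nfkb1 because their windows held the NF-kappaB motif, searched on both strands as GGG and TTCC with any 3 bases between them. Capitals mark a match to that motif.
Tlr3, chr16:53554666-53554965, plus strand: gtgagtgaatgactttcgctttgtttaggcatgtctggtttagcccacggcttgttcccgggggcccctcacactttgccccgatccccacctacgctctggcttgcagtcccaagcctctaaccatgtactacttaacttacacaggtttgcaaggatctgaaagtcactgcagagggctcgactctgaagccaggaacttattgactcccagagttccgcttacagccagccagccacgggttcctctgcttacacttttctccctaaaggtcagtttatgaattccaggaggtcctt
Cd14, chr18:28611109-28611408, minus strand: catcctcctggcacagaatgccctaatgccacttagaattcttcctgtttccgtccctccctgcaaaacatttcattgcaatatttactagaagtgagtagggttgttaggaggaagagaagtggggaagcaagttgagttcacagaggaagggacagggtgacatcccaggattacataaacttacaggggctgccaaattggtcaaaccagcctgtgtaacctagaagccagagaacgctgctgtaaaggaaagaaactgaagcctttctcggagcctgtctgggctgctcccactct
Tlr2, chr2:171504508-171504807, minus strand: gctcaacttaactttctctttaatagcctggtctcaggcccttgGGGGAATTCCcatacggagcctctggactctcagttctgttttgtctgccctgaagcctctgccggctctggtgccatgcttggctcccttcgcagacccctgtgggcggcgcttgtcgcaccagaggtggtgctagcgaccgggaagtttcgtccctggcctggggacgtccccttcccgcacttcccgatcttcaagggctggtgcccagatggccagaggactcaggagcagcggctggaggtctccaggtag
Nfkb1, chr2:226805413-226805712, minus strand: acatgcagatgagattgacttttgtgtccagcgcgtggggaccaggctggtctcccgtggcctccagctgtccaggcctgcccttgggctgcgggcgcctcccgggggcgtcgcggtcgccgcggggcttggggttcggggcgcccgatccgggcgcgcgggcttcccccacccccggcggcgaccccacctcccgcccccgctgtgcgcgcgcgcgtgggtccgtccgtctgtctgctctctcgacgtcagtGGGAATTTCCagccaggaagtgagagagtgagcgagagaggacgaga
The match began at base 45 of the Tlr2 window and at base 254 of the Nfkb1 window. The same motif was present in 5.37% of 33469 promoter windows of 300 bases. The interferon-response motif, searched on both strands as GAAA repeated after any 2 bases, was found in 3.92% of all windows and, among these genes, in the Myd88 window alone, where GAAAGCGAAA began at base 235. The 2 motifs did not overlap in any of these windows. These matches describe letters and do not show binding.

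The libraries held 21384801 to 25618417 counts, so that 3 counts, used here as a floor, corresponded to 0.118 to 0.152 CPM (counts scaled to library size with TMM factors). edgeR's filter on low counts kept 14719 protein-coding genes for testing, including all 8 measured genes. Calls required a p under 0.05 after Benjamini-Hochberg adjustment, together with a change of 1.5-fold or more. The ganglion label was checked on marker genes. All 6 sensory neuron markers were detected, with a summed level of 10699 to 17173 CPM, as were all 6 markers of satellite glia and Schwann cells. The latter sum differed between libraries of the same group, at 48610 and 124961 CPM in vehicle replicates 1 and 2 and 39599 and 111739 CPM in cisplatin replicates 1 and 2. The T-cell markers Cd3e and Cd3d had at most 4 counts in any library.

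At the level of transcript per length, the measured receptors were scarce in the ganglion, and the downstream genes Myd88 and Nfkb1 were more abundant. Of the measured rows, Nfkb1 had the highest mean, 11.6 ± 2.07 FPKM (fragments scaled to gene length and by a constant per library, with SD over n = 4 libraries), followed by Myd88 with 4.32 ± 0.757 FPKM. Neither range overlapped that of the next gene in the order. Cd14 (1.55 ± 0.619 FPKM), Tlr2 (0.893 ± 0.0247 FPKM), Tlr3 (0.716 ± 0.167 FPKM), Tlr4 (0.538 ± 0.141 FPKM), Hmgb1 (0.476 ± 0.371 FPKM) and Tlr7 (0.274 ± 0.0189 FPKM) followed. From Cd14 down to Tlr7, each gene overlapped its neighbour in the order, so neighbouring ranks could not be separated. Genes further apart could be: Tlr2 (0.861 to 0.921 FPKM) lay wholly above Tlr4 (0.399 to 0.726 FPKM), and Cd14, Tlr2, Tlr3 and Tlr4 all lay above Tlr7 (0.252 to 0.292 FPKM). Nfkb1 lay at the 60.5th percentile of mean FPKM among the genes tested and Tlr7 at the 3.59th. The Hmgb1 value is that of the row with this name, which held 0.525% of the counts described as HMGB1. Another row of that description, LOC685520, had a mean of 54.4 FPKM, above Nfkb1. The rank of Hmgb1 therefore does not give the level of HMGB1 transcripts.

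**Figure D1:**
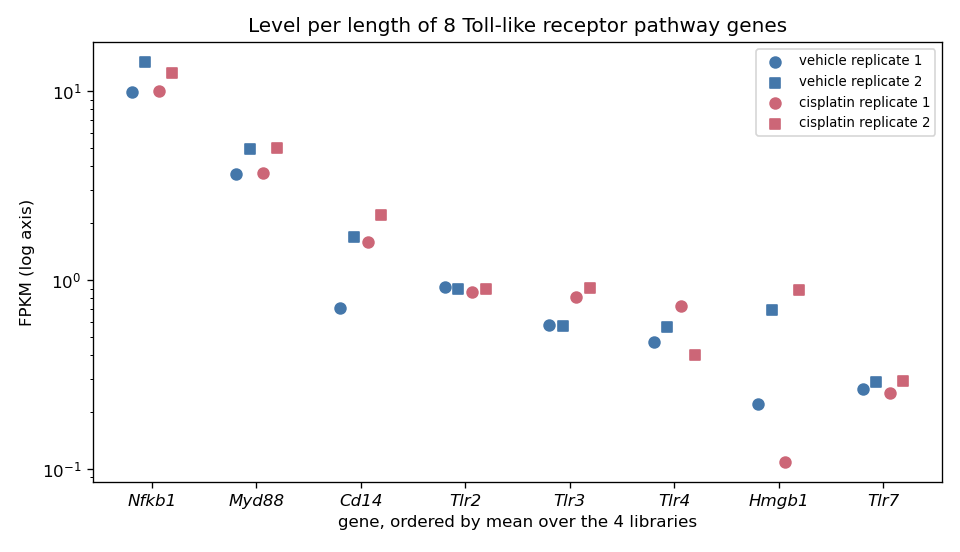
FPKM (log axis) of the 8 measured genes in each of the 4 libraries, ordered by their mean. Nfkb1 and Myd88 lay above the other 6 genes in every library, and the groups overlapped in every gene except Tlr3. Hmgb1 is shown from the row with this name alone, which held 0.525% of the counts described as HMGB1.

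None of the 8 measured genes was called between cisplatin and vehicle. edgeR called 0 of 8, against 0.00679% of all genes tested, and DESeq2 (0.951% of all genes) and limma on log2(FPKM + 1) (0.0272% of all genes) also called none, although DESeq2 gave no adjusted p for Hmgb1. Before adjustment, edgeR had 0 of 8 genes at p under 0.05 with a 1.5-fold change, against 8.12% of all genes tested. With 2 libraries against 2, an exact permutation test of a single gene cannot give a two-sided p below 0.333, so the test rests on the spread modelled across genes. The fitted log2 fold changes of the 8 genes ran from -0.10 to 0.67, with a median of 0.07 beside -0.01 over all genes tested. In CPM, both cisplatin libraries lay above both vehicle libraries in 1 gene, Tlr3 (20.6% of all genes tested), and below them in 1 gene, Tlr2 (21.2% of all genes tested).

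Of the endosomal receptors, Tlr3 was the receptor with the highest fitted fold change. Tlr3 (ENSRNOG00000021726, chromosome 16, 50016857 to 50031214, build Rnor_6.0 as for all gene positions here) encodes the sensor of double-stranded RNA. It had 66 and 52 counts in vehicle replicates 1 and 2 and 94 and 97 counts in cisplatin replicates 1 and 2. Both cisplatin libraries were above both vehicle libraries, which were almost equal to each other at 2.64 CPM each. The group means were 2.64 ± 0.00364 CPM in vehicle and 3.91 ± 0.299 CPM in cisplatin (SD, n = 2 each). The log2 fold change was 0.57 (standard error 0.31, 95% interval -0.20 to 1.33), and it did not pass the test (adjusted p = 0.572, unadjusted p = 0.118, edgeR). Tlr7 (ENSRNOG00000004249, chromosome X, 28486869 to 28512957), the sensor of single-stranded RNA, had 29 and 25 counts in vehicle and 28 and 30 counts in cisplatin. The groups overlapped, and the log2 fold change was -0.03 (95% interval -1.05 to 0.99, adjusted p = 0.985, edgeR). At this depth a 1.5-fold change of Tlr7 in either direction was not detectable.

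Of the surface receptors, Tlr2 was nearly level across libraries and Tlr4 varied most within the cisplatin group. Tlr2 (ENSRNOG00000009822, chromosome 2, 182840727 to 182846061), which recognises bacterial lipopeptides, had 61 and 47 counts in vehicle and 58 and 56 counts in cisplatin. After scaling, the 4 values lay between 2.28 and 2.44 CPM, and the lower values in both cisplatin libraries amounted to a log2 fold change of -0.05 (95% interval -0.87 to 0.77, adjusted p = 0.967, edgeR). In FPKM the Tlr2 groups overlapped. Tlr4 (ENSRNOG00000010522, chromosome 5, 82587420 to 82601052), the lipopolysaccharide receptor, had 40 and 38 counts in vehicle and 63 and 32 counts in cisplatin. The highest and the lowest Tlr4 value both came from cisplatin libraries, at 2.48 and 1.36 CPM. Its log2 fold change was 0.13 (95% interval -0.98 to 1.24, adjusted p = 0.933, edgeR), and without cisplatin replicate 1 it was -0.36.

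Among the co-receptors, Cd14 had the highest fitted fold change of the 8 genes, with a wide interval. Cd14 (ENSRNOG00000017819, chromosome 18, 29560365 to 29562153) had 31 and 58 counts in vehicle and 70 and 90 counts in cisplatin. On the scaled level the groups overlapped, since vehicle replicate 2 (2.95 CPM) was above cisplatin replicate 1 (2.76 CPM), while vehicle replicate 1 was the lowest library at 1.24 CPM. The means were 2.09 ± 1.21 CPM in vehicle and 3.29 ± 0.757 CPM in cisplatin (SD, n = 2 each). The log2 fold change was 0.67 (standard error 0.50, 95% interval -0.59 to 1.92, adjusted p = 0.673, edgeR). It was 0.17 without vehicle replicate 1 and 1.41 without vehicle replicate 2. For Ly96, the partner of Tlr4, an assembled transcript without a gene name or biotype carried the protein description of LY96 (chromosome 5, 1971672 to 1989448). That row was chosen after its values were seen, with 19 and 18 counts in vehicle and 46 and 14 counts in cisplatin. As in Tlr4, cisplatin replicate 1 was the highest and cisplatin replicate 2 the lowest library. In a fit over all gene biotypes the log2 fold change of that row was 0.54 (95% interval -1.06 to 2.14, adjusted p = 0.804, edgeR).

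The adaptor Myd88 and the transcription factor Nfkb1 had the deepest counts of the 8 genes, and their groups overlapped. Myd88 (ENSRNOG00000013634, chromosome 8, 128022473 to 128026841), the adaptor of most TLRs, had 228 and 246 counts in vehicle and 236 and 296 counts in cisplatin. The means were 10.8 ± 2.40 CPM and 10.9 ± 2.33 CPM (SD, n = 2 each), and the log2 fold change was 0.02 (95% interval -0.71 to 0.75, adjusted p = 0.987, edgeR). Nfkb1 (ENSRNOG00000023258, chromosome 2, 240773456 to 240866689), whose own promoter window held the NF-kappaB motif printed with the sequences, had 977 and 1113 counts in vehicle and 1007 and 1159 counts in cisplatin. Its means were 47.8 ± 12.4 CPM and 44.4 ± 6.81 CPM, and the log2 fold change was -0.10 (95% interval -0.73 to 0.52, adjusted p = 0.905, edgeR). In both genes the libraries of a group differed more than the groups did. All measured genes except Tlr2 and Tlr4 had their higher scaled value in the replicate 2 library of each group (Tlr3 by a small margin in vehicle), the libraries that also held more of the Schwann cell and satellite glia markers. The part of those cells in these levels was not tested. Ticam1, the adaptor of Tlr3, was described by protein name in a row annotated as a pseudogene (ENSRNOG00000048462, chromosome 9, 10787455 to 10789519), also chosen after its values were seen. It had 38 and 55 counts in vehicle and 53 and 83 counts in cisplatin, and in the fit over all biotypes its log2 fold change was 0.39 (95% interval -0.80 to 1.58, adjusted p = 0.808, edgeR).

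The ligand Hmgb1 could not be measured from its own row. Hmgb1 (ENSRNOG00000029813, chromosome 12, 7081895 to 7094002) had 4 and 10 counts in vehicle and 2 and 15 counts in cisplatin, and its log2 fold change of 0.13 had an interval from -2.61 to 2.87 (adjusted p = 0.974, edgeR). In all, 7 rows of the table carried the HMGB1 protein description, 5 of them with counts, and the row named Hmgb1 held 0.525% of their 5910 counts. LOC685520 (chromosome 1) held the most, with 1021 and 952 counts in vehicle and 903 and 1381 counts in cisplatin. These rows share a protein description, and their sequences were not compared. How reads were divided among them is uncertain. Summed over the 7 rows, the level was 55.5 and 66.8 CPM in vehicle and 53.1 and 79.0 CPM in cisplatin, so the groups overlapped in the sum as well.

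**Figure D2:**
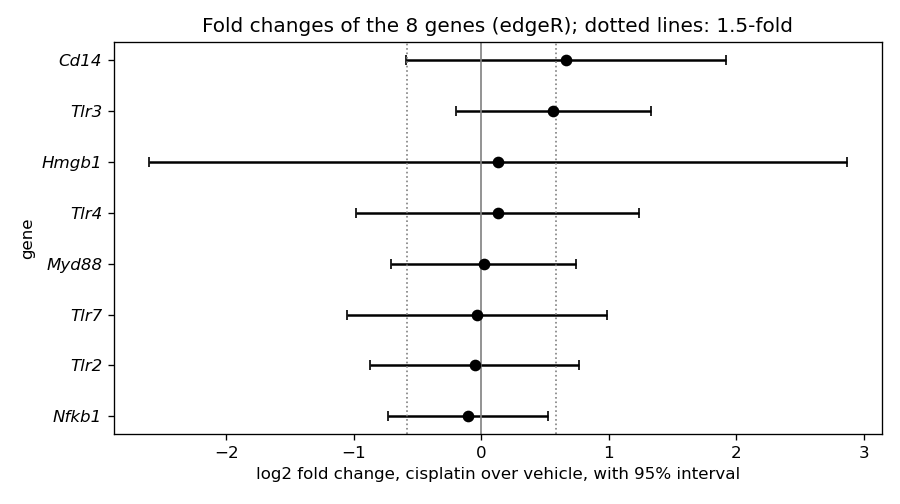
Log2 fold change of cisplatin over vehicle for the 8 measured genes (points) with 95% intervals from edgeR (bars), the dotted lines marking a 1.5-fold change. Every interval held 0. The interval of Nfkb1 ended at 0.52, short of a 1.5-fold rise, and that of Tlr3 began at -0.20, short of a 1.5-fold fall, whereas the other 6 held both.

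Several TLRs are expressed by macrophages, so the receptors were set beside 8 macrophage markers. In pooled ganglia, fewer cells of a type and less RNA per cell cannot be told apart. The markers summed to 55.8 and 66.2 CPM in vehicle and 57.5 and 63.5 CPM in cisplatin, and the groups overlapped. edgeR called 0 of the 8 markers, with a median log2 fold change of -0.01. At an unadjusted p under 0.05 with a 1.5-fold change it picked 1 of the 8, against 8.12% of all genes tested. This was Cd68, a lysosomal protein of macrophages, with 39 and 36 counts in vehicle and 73 and 77 counts in cisplatin. In all, 2 markers had both cisplatin libraries above vehicle (Cd68 and C1qa, against 20.6% of all genes tested) and 3 had both below (Aif1, Adgre1 and Cd163, against 21.2%). The pan-leukocyte marker Ptprc had 71 and 54 counts in vehicle and 61 and 58 counts in cisplatin, and both cisplatin libraries were the lower in CPM. Relative to the macrophage marker sum, Tlr3 was at 4.72% and 3.99% in vehicle and 6.43% and 6.50% in cisplatin. Cd14 was at 2.22% and 4.45% in vehicle and 4.79% and 6.03% in cisplatin. These were the 2 genes of 8 in which both cisplatin libraries exceeded both vehicle libraries on this ratio, as they were with each of the 8 markers left out in turn. In CPM the same order held for 20.6% of all genes tested, and the share on this ratio was not computed. Without the division, the Cd14 groups overlapped in CPM. Tlr2, Tlr4 and Tlr7 overlapped between groups on the same ratio. Which cells carried these transcripts was not tested.

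**Figure D3:**
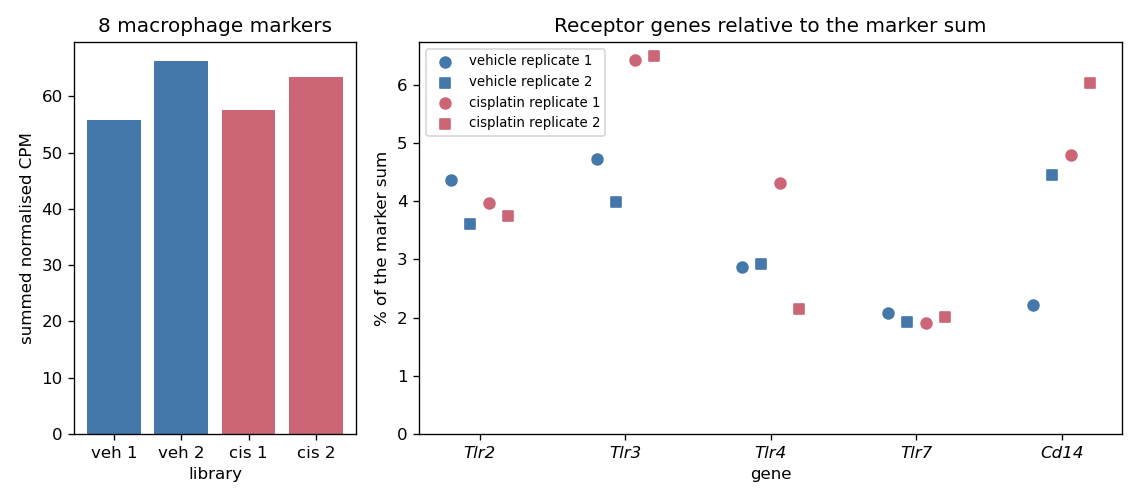
Left, summed normalised CPM of 8 macrophage markers in vehicle (veh) and cisplatin (cis) libraries. Right, the level of 5 receptor genes as a percentage of that sum in each library, with Tlr3 between 3.99% and 4.72% in vehicle and at 6.43% and 6.50% in cisplatin.

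The other genes of the pathway gave a wider view. A list of 77 names, grouped by role, matched 75 protein-coding rows, of which 62 passed the filter on low counts and 13 did not (at most 17 counts in any library). edgeR called 0 of the 62, and DESeq2 and limma on log2(FPKM + 1) called 0 as well. DESeq2 gave no adjusted p for some of them, Ccl5, Tlr5, Tlr6 and Tlr8 included. At an unadjusted p under 0.05, edgeR picked 2 genes with higher and 2 with lower levels in cisplatin, all past 1.5-fold, which is 4 of 62 against 8.12% of all genes tested. Both cisplatin libraries were above both vehicle libraries in 13 of 62 genes, against 20.6% of all genes tested, and below in 16 of 62, against 21.2%. The median log2 fold change of the 62 was -0.02.

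Ly86 and Ccl2 had the higher levels in cisplatin. Ly86 encodes MD-1, the partner of the TLR4 homologue CD180, and had 36 and 30 counts in vehicle and 99 and 93 counts in cisplatin. Its libraries agreed within each group, at 1.48 ± 0.0608 CPM and 3.92 ± 0.0396 CPM (SD, n = 2 each). The log2 fold change was 1.40 (standard error 0.33, 95% interval 0.59 to 2.22, unadjusted p = 0.00613), but the adjusted p was 0.509 in edgeR. Cd180 itself had 13 and 11 counts in vehicle and 18 and 14 counts in cisplatin. Ccl2, a monocyte chemoattractant induced by NF-kappaB, had 126 and 85 counts in vehicle and 375 and 202 counts in cisplatin, and its log2 fold change was 1.32 (95% interval 0.45 to 2.18, adjusted p = 0.509, edgeR).

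Traf3 and Traf6 had the lower levels in cisplatin. Both encode ubiquitin ligases, TRAF6 passing the signal from MyD88 to NF-kappaB and TRAF3 towards interferon induction. Traf6 had 96 and 59 counts in vehicle and 40 and 43 counts in cisplatin, and its log2 fold change was -1.01 (95% interval -1.88 to -0.14, adjusted p = 0.509, edgeR). Traf3 had 1470 and 821 counts in vehicle and 724 and 619 counts in cisplatin, and its log2 fold change was -0.87 (95% interval -1.45 to -0.30, adjusted p = 0.509, edgeR). The vehicle libraries also differed from each other in Traf3, at 58.7 and 41.7 CPM, yet both were above the cisplatin libraries at 28.5 and 26.3 CPM. The list of kinases and ubiquitin ligases held 17 genes, some of which encode binding partners of these enzymes. Of the 17, 14 had a fitted log2 fold change below 0, and the median was -0.28. Both cisplatin libraries lay below both vehicle libraries in 8 (21.2% of all genes tested) and above in none (20.6% of all genes tested). Over all 14719 genes tested, 7487 were fitted below 0. None of the 17 was called. After Traf3 and Traf6 the smallest p in this group was that of Peli1, an E3 ligase that acts with the IRAK kinases (log2 fold change -0.50, adjusted p = 0.577, edgeR).

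In the other roles no gene had an unadjusted p under 0.05, Ly86 and Ccl2 apart. Among 7 co-receptors and trafficking factors, the scavenger receptor Cd36 had 148 and 100 counts in vehicle and 64 and 89 counts in cisplatin (log2 fold change -0.80, adjusted p = 0.519, edgeR). Lbp, the lipopolysaccharide-binding protein that works with CD14, was at 0.70 (adjusted p = 0.598, edgeR). Of the adaptors, Tirap, which bridges TLR2 and TLR4 to MyD88, was at -0.83 (adjusted p = 0.564, edgeR), Sarm1 at -0.23 and Ticam2 at 0.23. Of the other TLRs, 3 of 7 rows passed the filter, Tlr5 at 0.49, Tlr8 at 0.33 and Tlr6 at -0.19, each with at most 20 counts in a library.

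Among 8 endogenous ligands and HMGB1 receptors, 4 had both cisplatin libraries above vehicle (20.6% of all genes tested) and 1 had both below (21.2% of all genes tested). The latter was Ager, which encodes the HMGB1 receptor RAGE, at 3.20 and 3.66 CPM in vehicle and 2.64 and 3.06 CPM in cisplatin. S100a8 and S100a9, which encode the calprotectin subunits of neutrophils, had log2 fold changes of 0.74 and 0.70 (adjusted p = 0.550 and 0.538, edgeR). S100a8 had 252 and 115 counts in vehicle and 272 and 377 counts in cisplatin, and S100a9 had 373 and 216 counts in vehicle and 400 and 621 counts in cisplatin. The neutrophil markers Mpo (62 and 31 counts in vehicle, 62 and 113 counts in cisplatin) and Csf3r (20 and 15 counts in vehicle, 43 and 29 counts in cisplatin) completed a list of 4 that includes both S100 genes. Their sum was 28.2 and 19.2 CPM in vehicle and 30.6 and 48.5 CPM in cisplatin. The part of neutrophils was not tested. Bgn, the proteoglycan biglycan, was at 0.32 (adjusted p = 0.569, edgeR).

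Among 10 genes listed here as inhibitors, Nfkbiz (-0.73), Cyld (-0.49) and Tnfaip3 (-0.46) had the smallest p, with adjusted p = 0.526, 0.544 and 0.648 in edgeR. The heading is a list label, and whether Nfkbiz acts as an inhibitor in these ganglia was not tested. Nfkbiz and Tnfaip3 are themselves induced by NF-kappaB, and Tnfaip3 encodes the deubiquitinase A20. Nfkbiz had 88 and 68 counts in vehicle and 55 and 48 counts in cisplatin. Of 7 transcription factors, none had groups that separated, against 20.6% of all genes tested with cisplatin above and 21.2% with cisplatin below. Nfkb2 was at -0.32, Irf7 at 0.17 and Relb at -0.13. Rela, which pairs with the Nfkb1 product, had 1146 and 1503 counts in vehicle and 1300 and 1735 counts in cisplatin (log2 fold change 0.03).

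Of the NF-kappaB and interferon target genes, 9 of 16 rows were too low to test. Il6, Il10, Tnf and Ifnb1 had at most 6 counts in any library, so their induction or its absence was not detectable at this depth. Ccl5, a T-cell chemoattractant, had 5 and 0 counts in vehicle and 11 and 23 counts in cisplatin (log2 fold change 2.62, 95% interval -0.03 to 5.26, adjusted p = 0.519, edgeR), a fitted value that depends on the prior count and ran from 1.79 to 7.02 with 1 library left out. Cxcl10, an interferon-induced chemokine, was at 0.29 (adjusted p = 0.800, edgeR). Il1b had 11 and 10 counts in vehicle and 11 and 7 counts in cisplatin. The adhesion molecule Icam1 had 194 and 208 counts in vehicle and 171 and 277 counts in cisplatin, a log2 fold change of 0.02.

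**Figure D4:**
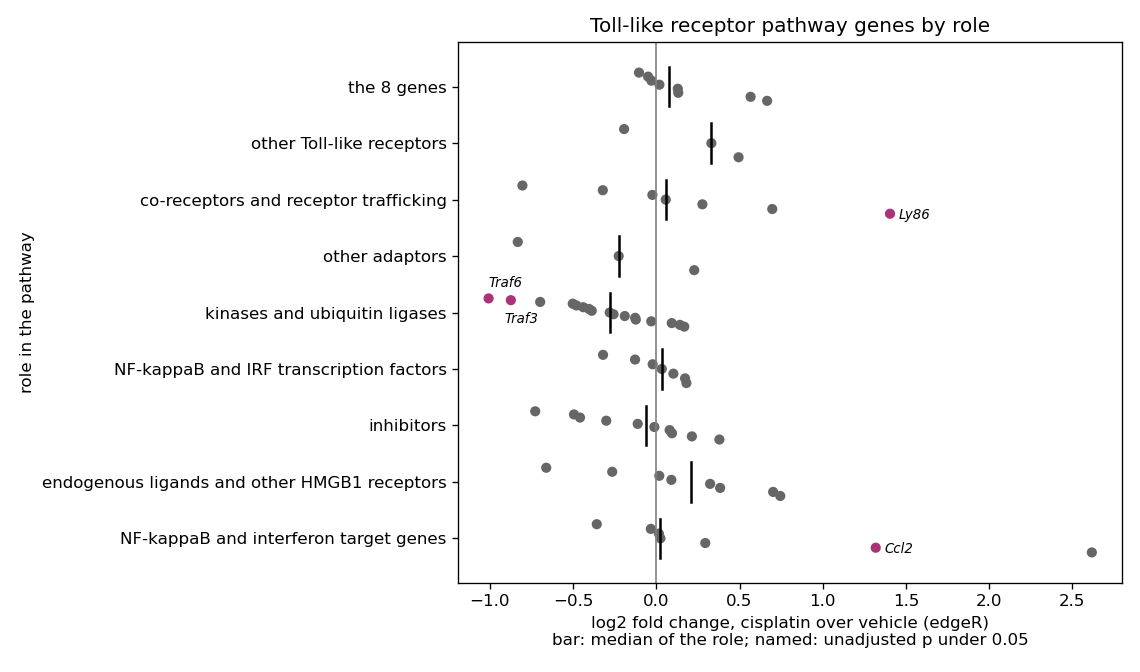
Log2 fold change of cisplatin over vehicle (edgeR) for the 8 measured genes and the 62 other pathway genes tested, by role, with bars at the median of each role. The 4 named genes, Ly86, Ccl2, Traf3 and Traf6, had an unadjusted p under 0.05 and none was called after adjustment.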

How the data were processed

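RNA sequencing of lumbar DRGs was performed by the study on poly(A)-selected RNA. The authors aligned paired reads to the Ensembl Rnor_6.0 genome with HISAT2 2.0.5 and assembled transcripts with StringTie 1.3.3b, and the submitters' processing notes also list featureCounts 1.5.0-p3. The authors deposited raw counts per gene, and FPKM values, which follow from each count by its gene length and 1 scaling constant per library. Whether counting used strand is not given in the sources used here. No other row overlapped the rows of the 8 measured genes.

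Protein-coding genes were kept with edgeR's filterByExpr (14719 of 22293), normalised with TMM and compared with edgeR 4.0.16 (glmQLFit, glmQLFTest) in R 4.3.3, without a block, with Benjamini-Hochberg adjustment over all genes tested. Intervals of 95% came from the standard error and the total degrees of freedom of the fit. DESeq2 1.42.0 and limma 3.58.1 on log2(FPKM + 1) and log2(FPKM + 0.1) were alternatives; this log scale understates changes of low genes. Nothing states that libraries came from separate litters, so p-values measure the spread between these libraries. Floors cover counting error alone, since PCR copies were not told apart by molecular identifiers. The scripts were tested on simulated data.

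The members and lists were chosen with earlier results of these data known. All 10 members were named, and of each other role the called genes or otherwise the 3 with the smallest p; Ager, Cd180, Rela, Il1b, Icam1, Il6, Il10, Tnf, Ifnb1, LOC685520 and the rows for Ly96 and Ticam1 were named after their values were seen. No row was named Tlr1 or Nos2, and Tlr13 was no protein-coding row. RefSeq sequences were matched by symbol.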

Additional observations from a re-analysis of the deposited data

How the results depend on the processing

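Over the alternatives, 0 of the 8 measured genes was called in every fit made: DESeq2, other size factors, no filter, a minimum of 10 counts per library (which dropped Hmgb1), all biotypes, FPKM, the gene length correction, the replicate block and each library left out. DESeq2 gave no adjusted p for Hmgb1 and, with the replicate block, also none for Tlr2, Tlr4, Tlr7 and Cd14. Tlr3 and Cd14 kept a positive and Tlr2 a negative log2 fold change throughout. The smallest adjusted p of any of the 8 genes was 0.135 for Tlr3 (log2 fold change 0.73), with the replicate block and the gene length correction. The order of the 8 genes by TPM was that by FPKM. In the other pathway genes the call depended on the replicate block. edgeR with the replicate block called 4 of 62 genes (Traf3, Vcan, Ccl2 and Ly86), DESeq2 with it 3 (Traf3, Vcan and Ccl2) and edgeR with it and the gene length correction 4 (Tnc, Traf3, Ccl2 and Ly86), and 4 passed an unadjusted p. These fits called 11.3%, 7.33% and 7.35% of all genes. DESeq2 with the replicate block gave no adjusted p for several pathway genes, Ly86 and Traf6 among them, so it could not call those genes. Same-numbered libraries are different rats, and the sample titles link them by number alone. The deposited column headers, Veh1, Veh2, Cis4 and Cis6, share no number between the groups. Whether same-numbered libraries shared a litter, sex or preparation is not stated. The differences between replicates 2 and 1 correlated between the groups across 14719 genes, which are not independent replicates (Pearson's r = 0.515, Spearman's rho = 0.594).

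Directions near 0 turned with the setting, and the cause was not tested. With the gene length correction the log2 fold change was 0.13 for Tlr7, 0.027 for Nfkb1, -0.14 for Hmgb1 and 0.11 for Tlr6, and with the replicate block as well 0.13, 0.040, -0.21 and 0.088. Myd88 was at -0.031 with library size alone. Hmgb1 was at -0.27 with the replicate block in DESeq2 and at -0.16 with limma on log2(FPKM + 0.1). With 1 library left out, the range was -0.36 to 0.49 for Tlr4, -0.14 to 0.083 for Tlr7, -0.22 to 0.27 for Myd88, -0.34 to 0.19 for Nfkb1, -1.95 to 1.12 for Hmgb1, -0.18 to 1.02 for Tlr8, -0.70 to 0.25 for Tlr6, -0.71 to 0.15 for Sarm1, -0.028 to 0.46 for Ticam2, -1.02 to 0.16 for Nfkb2, -0.055 to 0.38 for Irf7 and -0.40 to 0.19 for Relb. In such a fit the lone library is assumed to vary like the other group.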
